A study of Mus musculus with 2 samples.

Results

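The genes described here are 10 microRNA genes of the imprinted Dlk1-Dio3 domain. They are Mir493, Mir337, Mir540, Mir665, Mir431, Mir433, Mir127, Mir434, Mir341 and Mir370. The rule that chose them used name and position and no measured value. The list of names was, however, made with earlier results of these data known, and it leaves out other microRNA rows of the same interval. All 10 lie on chromosome 12 of the mouse, beyond the noncoding gene Meg3, across Rtl1 and into the noncoding gene Rian. Each was found among the 1973 microRNA gene rows of the count tables. The material was embryonic heart of the mouse strain B6NCrl, taken at 12.5 days of development with males and females pooled, with no treatment or genetic change named in the labels. Only microRNA-sized RNA (under 30 bases) was sequenced, in 1 group of 2 biological replicates with 1 library each. With 1 group there are no conditions to set against each other. The questions were how high each gene stood in the embryonic heart and how closely the replicates matched. No transgene or sorted cell type is named either, so the tissue was measured as a whole. In such bulk tissue, fewer cells of a type and less of an RNA per cell cannot be told apart.

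The Dlk1-Dio3 domain is imprinted, which means that its genes are read from the chromosome of 1 parent only. Dlk1, Rtl1 and Dio3 encode proteins and are read from the paternal chromosome, while Meg3, Rian, Mirg and the microRNAs of the domain are read from the maternal chromosome. Rtl1 derives from an ancient retrotransposon and is known from the fetal capillaries of the placenta. Several microRNA hairpins are encoded on the strand opposite to it and are fully complementary to its messenger RNA, which they are known to direct to cleavage. A microRNA otherwise recognises its targets mainly through the seed, bases 2 to 8 from its 5′ end.

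The genes fell into 3 groups by place, on the assembly GRCm38 with the GENCODE M21 annotation. Between Meg3 and Rtl1, outside any longer annotated gene, lie Mir493 (chr12:109580233-109580315), Mir337 (chr12:109585789-109585885), Mir540 (chr12:109586080-109586146) and Mir665 (chr12:109586314-109586407). On the strand opposite to Rtl1, and wholly opposite to its coding sequence, lie Mir431 (chr12:109590447-109590537), Mir433 (chr12:109591715-109591838), Mir127 (chr12:109592846-109592915) and Mir434 (chr12:109594506-109594599). In introns of Rian, on the same strand as that noncoding gene, lie Mir341 (chr12:109611500-109611595) and Mir370 (chr12:109618258-109618336). All 10 hairpins are on the plus strand and together span 38104 bases. The annotated hairpins are 67 to 124 bases long.

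The mature sequences opposite Rtl1 are shown first, because these 4 genes held most of the counts. They come from RefSeq on GRCm38.p6, run 5′ to 3′, and have the seed in capitals. Each hairpin has a mature form on its 5′ arm and another on its 3′ arm, and the count of a gene adds the reads of both arms.
miR-431-5p: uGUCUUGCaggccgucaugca
miR-431-3p: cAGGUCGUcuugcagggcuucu
miR-433-5p: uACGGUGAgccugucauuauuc
miR-433-3p: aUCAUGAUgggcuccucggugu
miR-127-5p: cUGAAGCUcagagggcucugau
miR-127-3p: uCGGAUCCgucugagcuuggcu
miR-434-5p: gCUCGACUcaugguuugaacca
miR-434-3p: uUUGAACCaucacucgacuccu

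The exact complement of each of these 8 mature sequences was searched in the 141767 transcripts of GENCODE M21. For each of the 8 it was found in Rtl1 alone, and 1 time in its messenger. All 8 matches lay in the coding sequence, which has 1744 codons. These matches followed from the place of the hairpins, wholly opposite that coding sequence. The search could only add whether other transcripts or further sites in Rtl1 matched as well. One site per hairpin is shown, read on the messenger strand, with the bases that pair with the seed in capitals.
Rtl1 site of miR-434-3p (codons 273 to 280): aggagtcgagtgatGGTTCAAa
Rtl1 site of miR-127-3p (codons 832 to 839): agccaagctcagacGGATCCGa
Rtl1 site of miR-433-3p (codons 1201 to 1208): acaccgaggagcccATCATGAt
Rtl1 site of miR-431-5p (codons 1642 to 1649): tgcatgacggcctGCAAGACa

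No mature form of the 6 other hairpins had a full complement in Rtl1. Both mature forms of Mir337 had a full complement in Mir3544, a gene annotated on the opposite strand there. The small RNA tables hold no value for the Rtl1 messenger, so these matches describe sequence only.

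The 20 mature sequences of the 10 genes had 20 different seeds. Of these seeds, 2 occurred in another mouse mature sequence of the RefSeq table, against 27.7% of its 1674 distinct mature sequences and 33.8% of 74 from the distal list. The seed of miR-370-5p is also that of miR-1193-3p, whose gene lies in the distal part of the same domain. The seed of miR-540-3p is shared with miR-6915-5p, whose gene was not analysed here. The first pair is shown, since its members come from the same domain.
miR-370-5p: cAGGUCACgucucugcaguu
miR-1193-3p: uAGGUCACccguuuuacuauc

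The dinucleotide CG, in which a C is followed by a G, was found in 7 of the 20 seeds (35.0%), against 13.1% of 1674 mature mouse sequences in the table and 8.11% of 74 from the distal list. The CG count was not among the planned measures. The forms from Mir341 held the most, with 5 CG in each mature sequence, and both of their seeds were among the 7.
miR-341-5p: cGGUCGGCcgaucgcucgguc
miR-341-3p: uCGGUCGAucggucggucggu

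Some hairpins repeated themselves. A stretch of at least 10 bases occurred more than once in 4 of the 10 hairpins (Mir540, Mir431, Mir434 and Mir341), against 4.08% of 1005 mouse hairpins, with the length of 10 set after the sequences were seen. The comparison did not allow for hairpin length, whose median was 92.5 bases for the 10 and 79 for all 1005. In Mir434 the repeat was 13 bases long, and in Mir431 it was 10 bases long, with 1 copy inside each mature form. Both hairpins are shown whole with the repeat in capitals.
Mir434 hairpin: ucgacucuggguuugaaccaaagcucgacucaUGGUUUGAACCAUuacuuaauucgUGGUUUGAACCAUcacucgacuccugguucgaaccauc
Mir431 hairpin: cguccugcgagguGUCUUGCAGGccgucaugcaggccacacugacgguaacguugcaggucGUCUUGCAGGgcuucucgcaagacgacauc

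Replicate 1 held 9235580 reads and replicate 2 held 10601121, of which 4478599 and 5279908 were counted on the strand of a microRNA gene. Levels are given as CPM, with an SD over the replicates (n = 2). CPM is each gene's sense count scaled so that these sense counts sum to 1000000 in a library. Reads that mapped to several places were left out, so genes with copies elsewhere can stand too low among all rows. The size of this effect on shares, ranks and backgrounds was not tested. Heart markers were present in both libraries: Mir208a, Mir208b and Mir499 together took 6.29% ± 0.144 (SD, n = 2) of the counts, while Mir122 of liver took 0.0181% and 0.00324%. Markers of smooth muscle (Mir143 and Mir145a) took a mean of 8.96%, and Mir126a of endothelium 6.79%. Markers of red blood cell precursors (Mir451a and Mir144) took 0.0926% in replicate 1 and 0.181% in replicate 2. Mean shares were 0.101% for markers of epithelium, 0.00315% for skeletal muscle and 0.000148% for neurons. The neuron markers are numbered copies of Mir124a and Mir9, and reads that mapped to several places were not counted. Their low share therefore cannot show whether neuronal RNA was scarce. For a gene with no count, the upper limit was 0.670 CPM in replicate 1 and 0.568 CPM in replicate 2. Each member had at least 449 counts in replicate 1, so none was near that limit. All intervals here cover counting error only, at the 95% level, since the sources name no molecular identifiers and reads copied by PCR are not independent molecules.

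All 10 genes reached 10 CPM in both libraries, against 14.4% of all gene rows. Together they took 1.56% ± 0.0460 (SD, n = 2) of the sense counts, with 1.60% in replicate 1 and 1.53% in replicate 2. The 4 genes opposite Rtl1 held 80.2% ± 0.0766 (SD, n = 2) of that sum. The 4 genes between Meg3 and Rtl1 held 13.2% ± 0.0590 (SD, n = 2), and the pair in Rian introns held 6.66% ± 0.0176 (SD, n = 2). The division between the 3 places was therefore nearly the same in both libraries, at 80.1% and 80.2% for the genes opposite Rtl1.

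**Figure D1:**
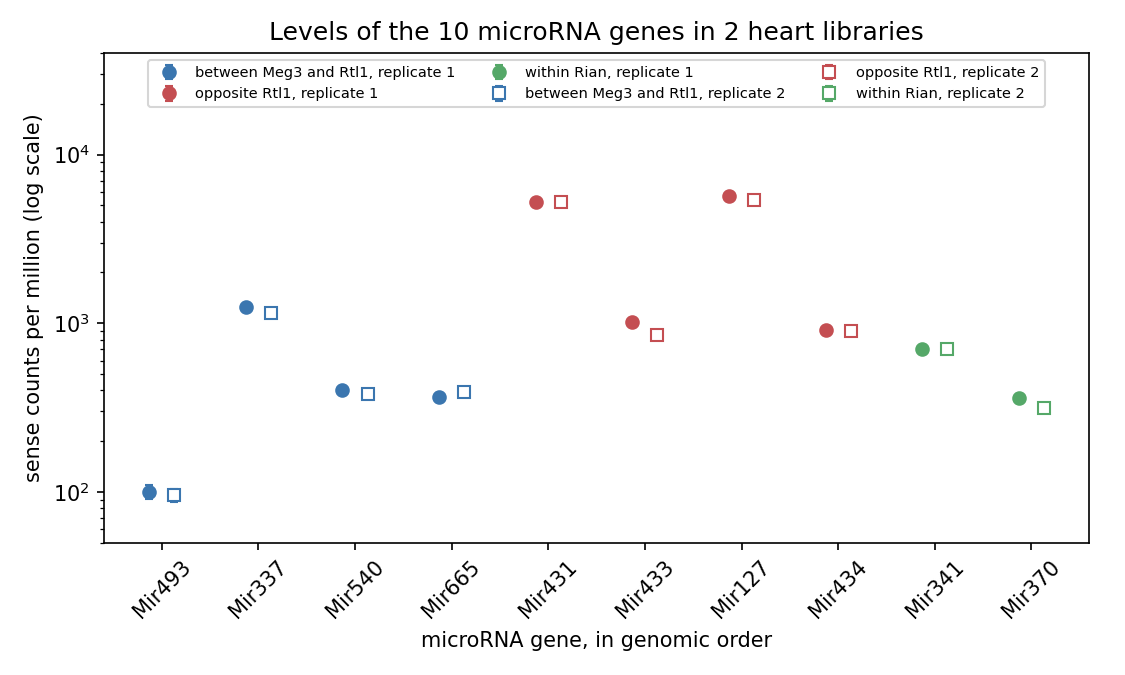
Level of each of the 10 genes in genomic order, in CPM of sense counts on a log axis. Filled circles are replicate 1 and open squares replicate 2, bars are 95% counting intervals (mostly smaller than the symbols), and colours give the place of the gene. Mir431 and Mir127 lie between 5197 and 5644 CPM, while Mir493 is lowest, near 100 CPM.

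Opposite Rtl1, Mir127 and Mir431 stood far above the genes beside them. Mir127, a microRNA best known for its full match to Rtl1, was the highest of the 10, with 25277 counts (5644 CPM, exact Poisson interval 5575 to 5714) in replicate 1 and 28201 counts (5341 CPM, interval 5279 to 5404) in replicate 2. Mir431, studied in skeletal muscle and its stem cells, had 23354 counts (5215 CPM, interval 5148 to 5282) and 27439 counts (5197 CPM, interval 5136 to 5259). These 2 genes made up 68.4% ± 0.565 (SD, n = 2) of the counts of all 10. Mir127 exceeded Mir431 by a ratio of 1.08 in replicate 1 and 1.03 in replicate 2, and the values of the libraries did not overlap. The mean levels were 5493 ± 214 CPM for Mir127 and 5206 ± 12.5 CPM for Mir431 (SD, n = 2).

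The other members opposite Rtl1 were lower in both libraries. Mir433, studied in cardiac fibroblasts and fibrosis, lies between Mir431 and Mir127 and had 1018 CPM (interval 989 to 1048) in replicate 1 and 850 CPM (interval 826 to 875) in replicate 2. Mir434 had 915 CPM (interval 887 to 943) and 899 CPM (interval 873 to 925). Mir433 was the higher of this pair in replicate 1 and the lower in replicate 2, so their order was not fixed. Mir431 exceeded Mir433, 1177 bases away, by a ratio of 5.62 ± 0.702 (SD, n = 2). Mir127 exceeded Mir433, 1007 bases away on the other side, by 5.91 ± 0.523 (SD, n = 2), and Mir434 by 6.06 ± 0.159 (SD, n = 2). Each of these gaps was wider than the difference between the libraries. How evenly the library preparation captured different sequences was not tested.

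Between Meg3 and Rtl1, Mir337 led with 1242 CPM (interval 1209 to 1275) in replicate 1 and 1142 CPM (interval 1113 to 1171) in replicate 2. The hairpin of Mir540 begins 194 bases after it and that of Mir665 follows after 167 more. Mir540 had 400 and 383 CPM, and Mir665 had 366 and 389 CPM, so that each was the higher in 1 library. Mir337 exceeded Mir540 by a ratio of 3.05 ± 0.0863 (SD, n = 2). Mir493, which lies nearest to Meg3 of the 10, had 449 counts (100.3 CPM, interval 91.2 to 110) in replicate 1 and 504 counts (95.5 CPM, interval 87.3 to 104) in replicate 2. It was the lowest in both libraries, and Mir337, the next member along the chromosome, exceeded it by a ratio of 12.2 ± 0.299 (SD, n = 2).

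Within Rian, Mir341, a microRNA known from rodents, had 704 CPM (interval 679 to 729) in replicate 1 and 705 CPM (interval 683 to 728) in replicate 2. Its SD of 1.10 CPM was the smallest of the 10. Mir370, studied in lipid metabolism of the liver, had 361 CPM (interval 344 to 380) and 313 CPM (interval 298 to 328). Mir341 exceeded Mir370 by a ratio of 2.10 ± 0.218 (SD, n = 2), and the libraries did not overlap.

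**Figure D2:**
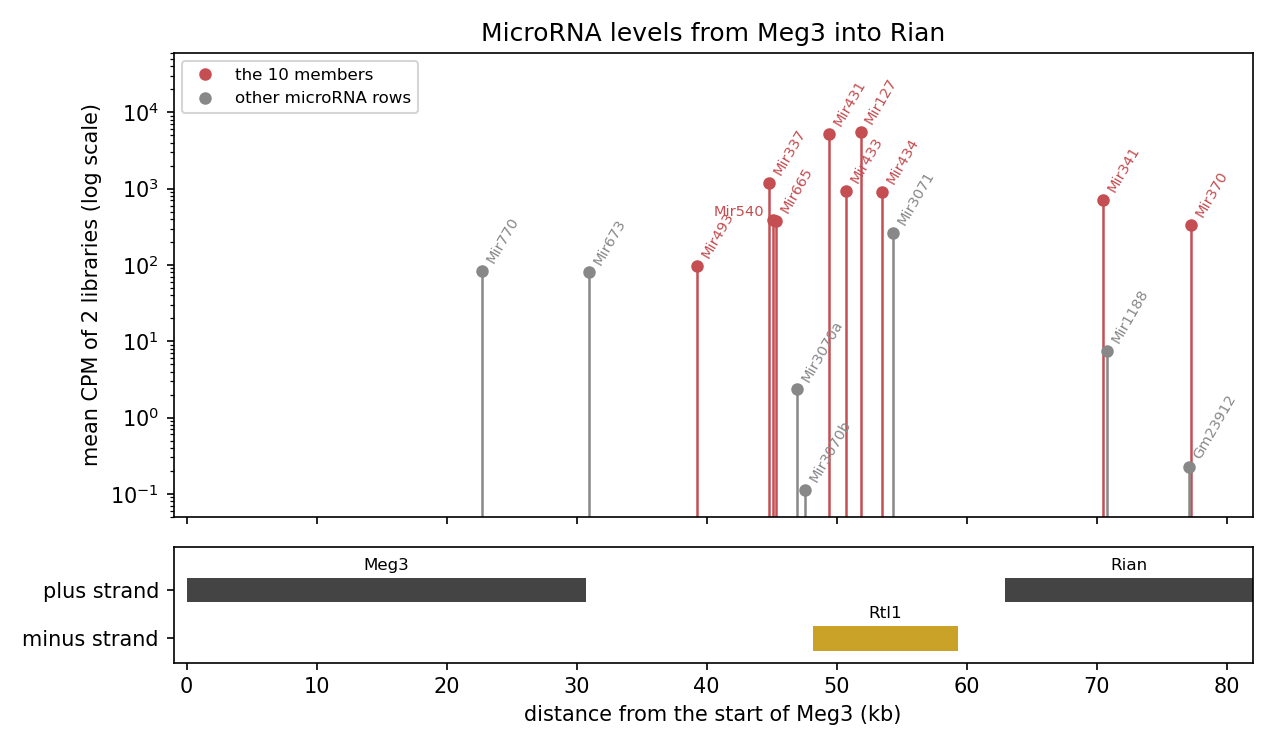
Mean CPM of the 2 libraries (log axis) for each microRNA gene row against its distance from the start of Meg3 in kilobases, with the 10 members in red and other rows in grey; rows with no count are not drawn. The lower panel shows Meg3 and Rian on the plus strand and Rtl1 on the minus strand, with Rian running past the right edge. The 2 highest stems, Mir431 and Mir127, both stand over Rtl1.

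In order of mean level the genes ran Mir127, Mir431, Mir337, Mir433, Mir434, Mir341, Mir540, Mir665, Mir370 and Mir493. Of the 9 pairs of neighbours in this order, 7 had values that did not overlap between the libraries. The pairs that overlapped were Mir433 with Mir434 (mean log2 ratio 0.04, SD 0.17, n = 2) and Mir540 with Mir665 (0.05, SD 0.11, n = 2). Mir665 and Mir370 did not overlap, but their log2 ratio was 0.02 in replicate 1 and 0.32 in replicate 2, and their counting intervals overlapped in replicate 1. The widest steps lay between Mir431 and Mir337, at 4.37 ± 0.249 (SD, n = 2), and between Mir370 and Mir493, at 3.44 ± 0.233 (SD, n = 2). From Mir127 down to Mir493 the ratio was 56.1 ± 0.242 (SD, n = 2). CPM does not allow for the length of the annotated hairpin, since a read covers a mature form and not the hairpin. With CPM divided by hairpin length, an alternative chosen after the values were seen, Mir434 passed Mir433 and Mir370 passed Mir665, and the other 6 genes kept their places.

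Among all 1973 gene rows, counted without multimapping reads, Mir127 ranked 28 and Mir431 ranked 29 in each library. Mir100, at 6038 ± 142 CPM (SD, n = 2), stood next above Mir127. At 1000 CPM or more in both libraries were 3 of the 10 genes, Mir127, Mir431 and Mir337, against 3.90% of all gene rows. Mir433 passed that level in replicate 1 alone. At the other end Mir493 ranked 178 by mean level, between Mir122 at 107 ± 105 CPM (SD, n = 2) and Mir29c at 97.6 ± 6.64 CPM (SD, n = 2). The median of the 10 mean levels was 806 CPM, and that of the 712 genes with a count was 2.53 CPM.

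**Figure D3:**
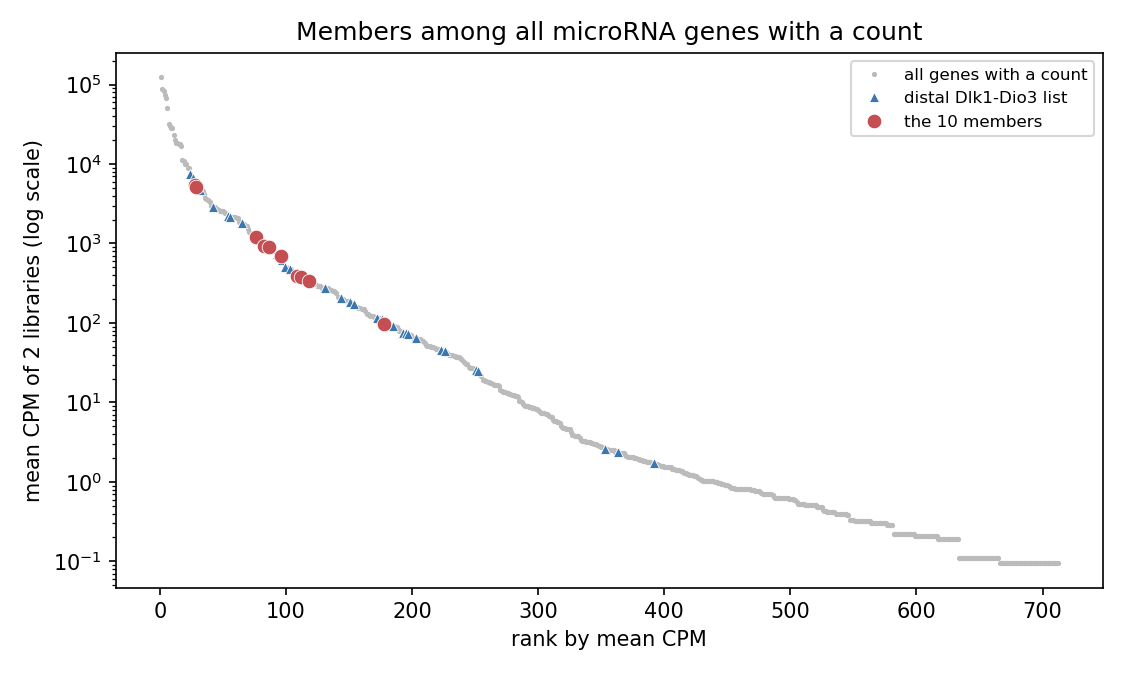
Mean CPM of the 2 libraries (log axis) against rank for the 712 microRNA genes with a count (grey), with the 10 members as red circles and the distal Dlk1-Dio3 list as blue triangles. The members run from rank 28 to rank 178, and the distal genes with a count spread further down.

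The distal part of the same imprinted domain, from Mir379 to Mir410, served as the closest comparison. Of 40 genes listed, 35 were analysed here. The 35 took 3.32% ± 0.127 (SD, n = 2) of the sense counts, so the 10 proximal genes together reached 0.471 ± 0.00407 (SD, n = 2) of the distal sum. The distal genes with the highest mean levels were Mir487b (7466 ± 814 CPM, n = 2), Mir411 (6721 ± 319 CPM, n = 2) and Mir369 (4713 ± 372 CPM, n = 2), and 2 of them stood above Mir127. The distal list had 29 of 35 genes at 10 CPM or more in both libraries, 7 at 1000 CPM or more, a median of 117 CPM and 3 genes with no count (Mir453, Mir654 and Mir496b). The 10 listed proximal genes thus covered a narrower range of levels, 97.9 to 5493 CPM, than the 35 distal genes. This contrast depends on which rows were listed. Mir432, Mir1906-1 and Mir882 lie in the proximal interval but outside the 10, and had no count. With both strands counted over the 35 listed distal genes and the 10 members, the ratio was 0.454. A further alternative, chosen after the values were seen, summed both strands of every row in the distal stretch, listed or not. The proximal sum was 0.379 of that sum, which differs in its rows as well as in strand. Mir487b exceeded Mir127 by a ratio of 1.42 in replicate 1 and 1.29 in replicate 2, and Mir411 exceeded it by 1.15 and 1.30. Mir1193, whose 3p form shares a seed with miR-370-5p, stood at 865 ± 69.9 CPM (SD, n = 2), above Mir370 at 337 ± 34.5 CPM (SD, n = 2). Both values add the arms of a hairpin, so they do not give the levels of the forms that share the seed.

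The interval from Meg3 on held 10 other microRNA rows, of which 3 reached 10 CPM in both libraries (Mir3071, Mir770 and Mir673). The 10 members held 97.4% and 97.2% of its counts in replicates 1 and 2. Mir770, in Meg3, stood at 83.4 ± 3.65 CPM (SD, n = 2) and Mir673, just past Meg3, at 80.1 ± 6.50 CPM (SD, n = 2). Mir3070a had 15 and 7 counts, Mir3070b 1 and 0, Mir1188 36 and 36, and Gm23912 2 and 0. Mir432, opposite Rtl1 and just past Mir434, had no count in either library, and Mir1906-1 and Mir882 had none. The row of Mir3071 had 1127 and 1419 counts (260.2 ± 12.1 CPM, n = 2). M21 places Mir3071 on the minus strand, opposite Mir136, under a later version of the identifier than the tables carry, so the strand these reads came from is not settled by M21, and Mir136 was not analysed here.

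The replicates were compared gene by gene. By the ratio of replicate 2 to replicate 1 on the log2(CPM + 1) scale, 0 of the 10 genes passed 1.5-fold in either direction, against 10.1% of the 444 genes with at least 10 counts in total. Of the 32 distal genes tested, 0 passed it as well, and with 10 genes a share of 0 is not far from that background. The 10 log2 ratios ran from −0.26 for Mir433 to 0.09 for Mir665, with a median of −0.07, and the median over the 444 genes was −0.0038. The median absolute log2 ratio was 0.07 for the 10 genes, 0.17 for the 32 distal genes and 0.17 over the 444 genes. Both of the wider sets include far lower counts than the 10 genes had. For 4 of the 10 genes the counting interval of the ratio left out 1, against 35.6% of the 444 genes and 19 of 32 distal genes, so this share was near that of all genes. The 4 genes were Mir433 (ratio 0.835, interval 0.801 to 0.870), Mir370 (0.865, interval 0.807 to 0.927), Mir337 (0.920, interval 0.887 to 0.954) and Mir127 (0.946, interval 0.930 to 0.963), all lower in replicate 2. With 1 library a side these ratios compare libraries, and no p-value was computed. The SD over the replicates was 0.156% to 12.7% of the mean level.

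**Figure D4:**
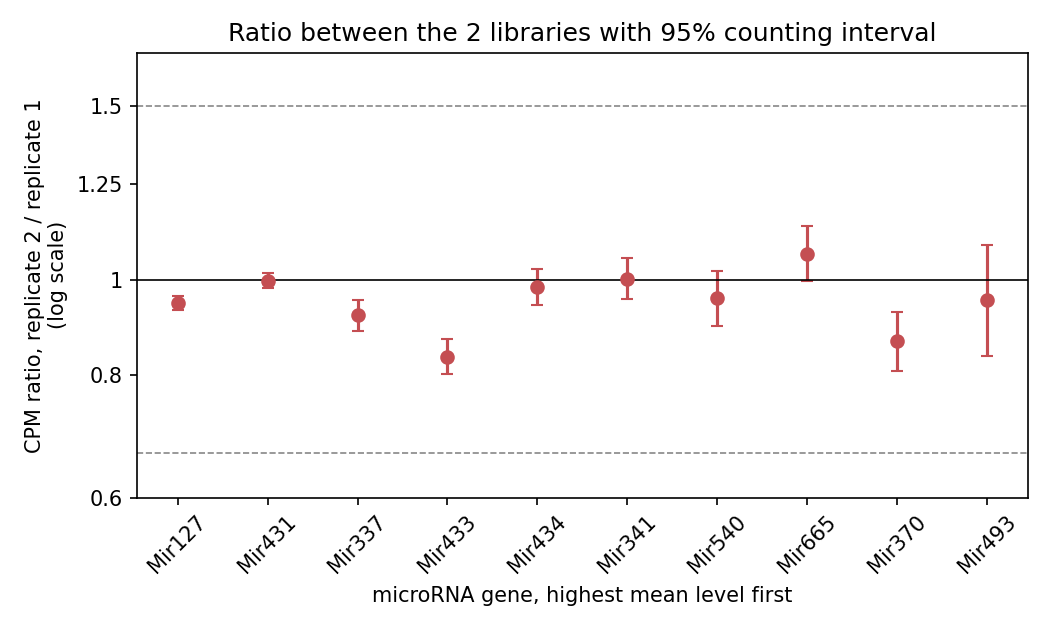
Ratio of CPM in replicate 2 to CPM in replicate 1 (log axis) for each gene, ordered from the highest to the lowest mean level. Bars are 95% counting intervals and dashed lines mark 1.5-fold. All 10 points lie inside the dashed lines, with Mir433 lowest at 0.835.

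Strand matters here because reads from Rtl1 would fall opposite to the microRNAs it overlaps. At the 4 genes opposite Rtl1 there were 0 opposite-strand counts beside 57290 sense counts in replicate 1 and 0 beside 64874 in replicate 2, which allows shares of up to 0.00524% and 0.00462%. Of the 10 genes, 9 had no opposite-strand count in either library. The exception was Mir337, with 3 opposite-strand counts in replicate 1 and 7 in replicate 2, or 0.0539% (exact binomial interval 0.0111 to 0.157) and 0.116% (interval 0.0466 to 0.239) of the counts there. M21 annotates Mir3544 on that strand. Its mature forms are shown beside those of Mir337 because they overlap by 17 and 21 bases in the genome, the 5p form of the 1 gene facing the 3p form of the other.
miR-337-5p: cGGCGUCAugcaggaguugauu
miR-3544-3p: aCUCCUGCaugacgccguuccc
miR-337-3p: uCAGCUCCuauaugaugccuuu
miR-3544-5p: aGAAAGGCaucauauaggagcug

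None of the 10 hairpins shared a stretch of 22 bases with another of the 1005 hairpins. Multimapping reads (27.1% and 25.3% of all reads in replicates 1 and 2) were left out of the gene counts, and whether mature forms of these genes also match places outside annotated hairpins was not tested. The median GC content was 56.1% for the 10 hairpins and 51.7% for all 1005. The folding energy predicted by RNAfold had a median of −0.489 kcal/mol per base for the 10 and −0.406 for all, but Mir433 (−0.361) and Mir434 (−0.398) were on the other side of the median of all hairpins. The most and the least abundant of them, Mir127 and Mir493, had −0.501 and −0.542 kcal/mol per base.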

How the data were processed

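MicroRNA-seq libraries of 2 mouse embryonic heart samples were analysed. The deposited tables hold raw counts per microRNA gene, made by the authors on mm10 with GENCODE annotation M4, per the labels and the file descriptions deposited with the tables. Which aligner and counting settings were used is not given in the sources used here. Column 3 was read as sense counts, from the values of the strand columns. The 4 opening rows (unmapped reads 18.1% and 19.1%, multimapping reads 27.1% and 25.3%, and reads outside genes or in several) name no gene and were left out. CPM, ranks, exact Poisson and Clopper-Pearson intervals were computed in Python 3.11.15 (scipy 1.17.1), and scale factors with edgeR 4.0.16 and DESeq2 1.42.0. A pseudocount of 1 CPM and a minimum of 10 counts in total were used for log2 ratios. The script was tested on simulated data. Names were matched through GENCODE M21 identifiers (1894 of 1973 rows), so positions are those of M21 and not of M4. Hairpins were folded with RNAfold 2.7.2. All 10 members are named, with the rows beside them in rank or in the interval and the 3 highest and the lowest distal genes. The members and lists were chosen with earlier results of these data known.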

Additional observations from a re-analysis of the deposited data

Results flagged for a closer look

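Opposite-strand counts were outside the main measurement, and Mir337 was the member that had any, with 3 in replicate 1 and 7 in replicate 2. There are no control samples to compare with. The 7 counts are above 3, the limit that a count of 0 allows, which any larger count passes, and the 3 counts of replicate 1 are not above it. The other 9 genes had none. Mir3544 is annotated on that strand of the same stretch.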

How the results depend on the processing

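The median CPM of the 10 genes was 793 as the mean of the library medians. With counts taken without regard to strand it was 759, the share of the counts 1.495% and the ratio to the distal sum 0.454. With all reads as the denominator the median was 389.9 CPM and the share 0.768%. The ratio was 0.379 with both strands of every distal row by position, listed or not, as the distal sum, chosen after seeing the data. At a minimum of 1000 CPM 3 genes passed in both libraries. Without replicate 1 or 2 the share ran from 1.53% to 1.60%, the median from 778 to 809 CPM and the ratio from 0.468 to 0.473. Of 19 log2 ratios, 4 near 0 changed sign: Mir433 to Mir434 (−0.08) and Mir540 to Mir665 (−0.03) without replicate 1, and replicate 2 to replicate 1 for Mir431 (0.03) and Mir434 (0.01) with all reads as the denominator. Mir431 also turned positive without regard to strand and with TMM or DESeq2 size factors. The count of members past the fold was 0 under every scaling, pseudocount and threshold run. The number of neighbour pairs without overlap was 7 under every scaling. It was also 7 with CPM divided by hairpin length, where the order differed and the pairs were not all the same. The number of members higher in replicate 2 ran from 2 to 4 with the scaling, so ratios near 1 have no fixed direction. No paired analysis was possible because there is 1 group. With 2 libraries an SD is imprecise, and counts do not separate the arms of a hairpin.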
